A study of Mus musculus with 6 samples.

Results

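The genes described here encode the chromobox subunits Cbx2, Cbx6, Cbx7 and Cbx8, the polyhomeotic subunits Phc1, Phc2 and Phc3, and the Scm homologue Scmh1, all of canonical Polycomb repressive complex 1 (PRC1). They were taken by gene symbol, and all 8 were found among the 24453 symbols of the count tables. Each of the 8 passed the filter on low counts, which kept 14890 genes. The samples were 3 libraries labelled as Ring1a-/- Ring1b-/- double knockouts (dKO; K1, K2 and K3 for replicates 1 to 3) and 3 labelled Control (C1, C2 and C3). Every library came from back skin epidermis of newborn mice at postnatal day 0, sorted for EpCAM, Sca1 and high α6-integrin, a gate for interfollicular epidermis rich in progenitors, and was sequenced after amplification of the RNA. The labels used here give no strain, no sex, no promoter that drives a deletion and no genotype of the controls beyond the word Control.

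Canonical PRC1 joins a RING-type ubiquitin ligase, Ring1a or Ring1b, to a PCGF partner, 1 chromobox protein, 1 polyhomeotic protein and, loosely, an Scm protein. The chromodomain of a Cbx protein binds the methylated histone H3 that Polycomb repressive complex 2 (PRC2) makes, which brings the ligase to silenced genes. The SAM domain of the Phc proteins forms chains that cluster and compact Polycomb-bound chromatin. Different Cbx proteins are used in stem cells and in differentiating cells of many tissues. The comparison shows whether transcripts of these subunits differed in epidermis labelled as lacking both ligases.

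Library depth ran between 18951665 counts in K2 and 31187270 counts in K1. Levels are CPM, counts brought to a common library total after scaling by trimmed mean of M-values (TMM), and group values are mean ± SD of 3 libraries. A floor of 3 counts was 0.0975 to 0.154 CPM, which covers counting error only. The targeted Ring1 had 1.66, 5.20 and 14.2 CPM in K1, K2 and K3, against 30.9, 17.1 and 3.90 CPM in C1, C2 and C3. In this gene the replicate 3 libraries went against their labels. Rnf2, the gene of Ring1b, overlapped between the groups, and reads outside any deleted part are counted with the rest, so it checks nothing. Xist, the RNA that coats the silenced X of females, was at 6133, 4736 and 4.48 CPM in K1, K2 and K3, against 10.5, 6.91 and 1757 CPM in C1, C2 and C3, so it was high in K1, K2 and C3 and did not follow the groups. The Y-linked Ddx3y had 0.0346, 0.206 and 76.2 CPM in K1, K2 and K3, against 91.2, 102.4 and 59.7 CPM in C1, C2 and C3, so C3 held both Xist and Y-linked counts. Libraries are therefore called dKO-labelled and Control-labelled, and results are also given without K3 and C3. The first principal component of all tested genes, with 57.8% of the variance, followed the labels in every library, K3 and C3 included. Its scores were -73.3, -51.6 and -43.8 in K1, K2 and K3, against 65.9, 48.0 and 54.8 in C1, C2 and C3. K1 and C1 had scores of 51.1 and 39.5 on the second principal component, against -30.8 to -10.3 in the other 4 libraries, and results are also given without K1 and C1. Nothing in the labels ties a library to its own animal, and a p-value here covers only the spread between these libraries, which may be technical.

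None of the 8 subunit genes passed the test. With edgeR's quasi-likelihood test and Benjamini-Hochberg adjustment over all tested genes, 0 of 8 had an adjusted p under 0.05, against 10.2% of all tested genes, 7.17% higher and 2.98% lower. DESeq2 and limma-voom also called 0 of the 8, against 17.0% and 10.6% of all tested genes. With Xist as a covariate edgeR called 0 of the 8 and 5.47% of all genes. At an unadjusted p under 0.05 there was 1, Cbx7, against 24.3% of all genes. Of the 8 log2 fold changes, 4 were positive and 4 negative, with a median of 0.04, against 0.00 over all tested genes. The median size of the log2 fold change, sign ignored, was 0.26 for the 8 and 0.41 for all genes, which were not matched to the 8 for level. CPM of the dKO-labelled libraries lay wholly outside the Control-labelled range for 2 of the 8, Cbx7 and Phc3, against 32.4% of all genes.

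**Figure D1:**
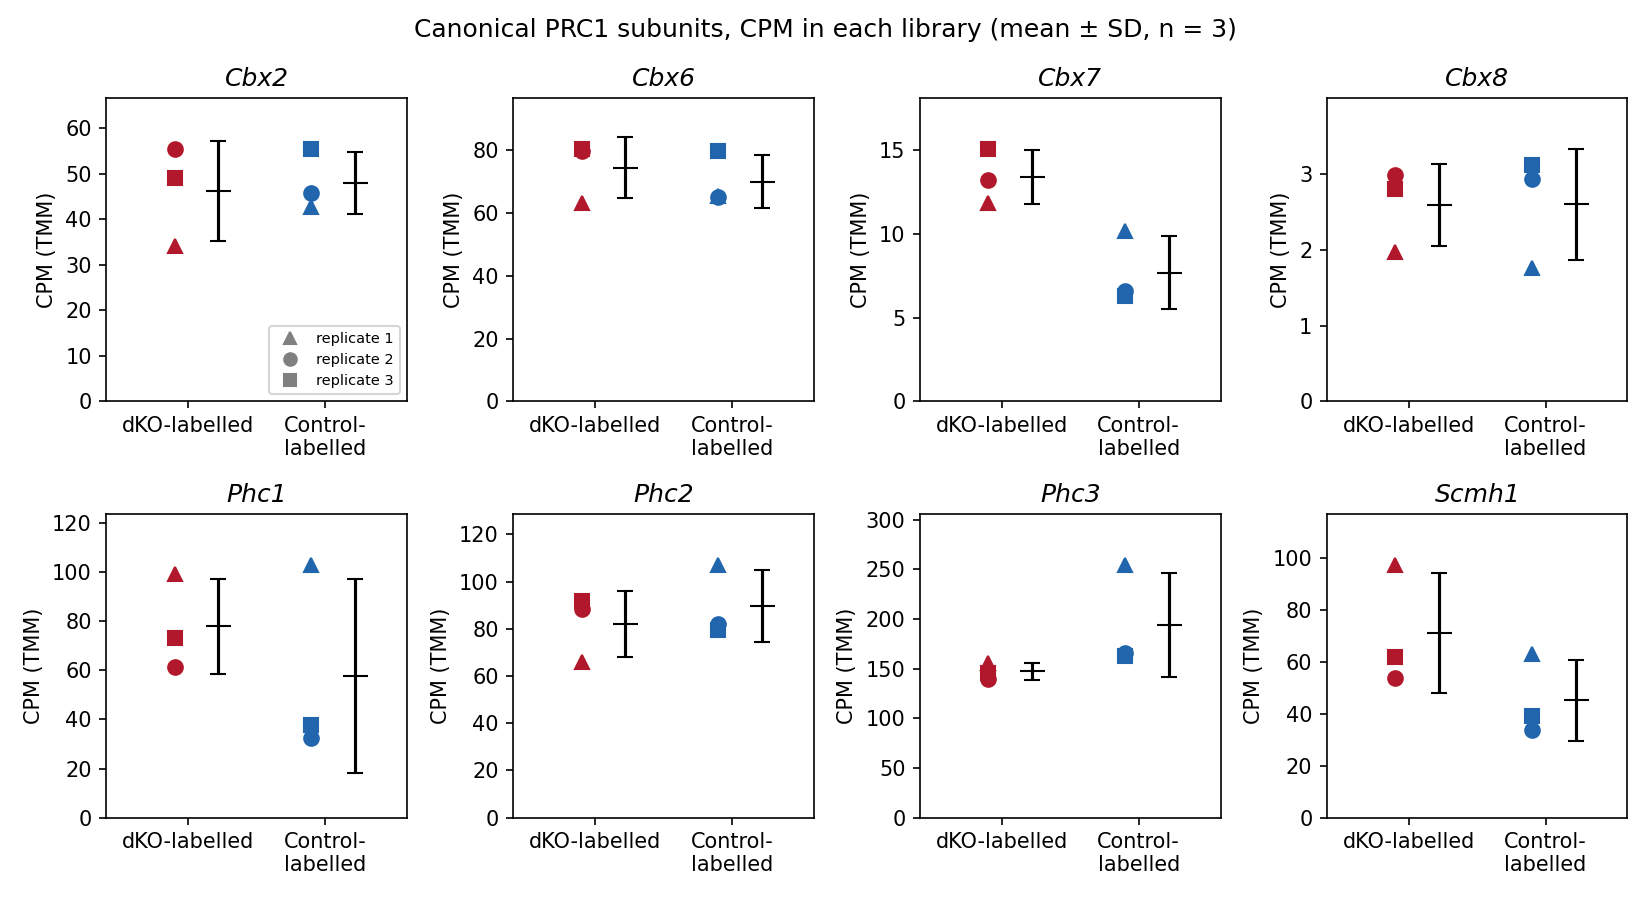
CPM (vertical axes, linear from 0) of the 8 subunit genes in each library, with dKO-labelled libraries in red at the left and Control-labelled libraries in blue at the right of each panel. Symbols give the replicate number and black bars the mean ± SD of 3 libraries; the groups are separate for Cbx7 and Phc3, and the replicate 1 libraries are the highest of their group for Phc1, Phc3 and Scmh1.

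Promoter sequence is shown for the 3 genes with the smallest unadjusted p, Cbx7, Scmh1 and Phc3, which were picked after their values were seen. The bases begin 250 upstream of a RefSeq start on GRCm38.p6 and end before that start or before the first base of any annotated exon, and are written 5′ to 3′ with each CG dinucleotide in capitals. The Cbx7 start lies inside the annotated gene, downstream of its outermost 5′ end. CG-rich sequence is what the Kdm2b subunit of variant PRC1 is known to bind.
Cbx7 (chr15:79932769-79932896, minus strand): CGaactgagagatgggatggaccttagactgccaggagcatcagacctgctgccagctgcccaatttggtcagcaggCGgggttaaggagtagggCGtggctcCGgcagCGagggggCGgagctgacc
Scmh1 (chr4:120405098-120405280, plus strand): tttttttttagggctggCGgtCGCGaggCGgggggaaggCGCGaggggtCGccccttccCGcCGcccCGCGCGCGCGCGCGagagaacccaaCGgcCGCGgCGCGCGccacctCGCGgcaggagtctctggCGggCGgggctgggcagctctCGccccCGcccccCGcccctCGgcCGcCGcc
Phc3 (chr3:30969416-30969665, minus strand): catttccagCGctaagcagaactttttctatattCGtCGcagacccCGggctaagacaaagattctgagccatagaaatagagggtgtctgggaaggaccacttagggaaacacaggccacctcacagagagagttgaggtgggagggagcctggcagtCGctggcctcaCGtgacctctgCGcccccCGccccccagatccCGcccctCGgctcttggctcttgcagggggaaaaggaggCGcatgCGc
These stretches hold 6, 32 and 12 CG dinucleotides in 128, 183 and 250 bases. RefSeq windows of 300 bases around the start, 250 before and 50 after, were at hand for 7 of the 8 genes, with 10 windows in all. Their CG counts were 31 for Cbx6, 33 for Cbx7, 24 for Cbx8, 9 for Phc1 and 15 for Phc3, with 19, 2 and 45 for the 3 starts of Phc2 and 54 and 0 for the 2 starts of Scmh1. The median over 32841 mouse windows was 7, so all but 1 start each of Phc2 and Scmh1 were above it. The palindrome CACGTG, the letters bound by dimers of Max and its partner Mga of a variant PRC1, was in 4 of the 10 windows, those of Cbx6, Cbx8 and Phc3 and the first of Phc2, and in 7.15% of all windows. The motif GCGGGAA was in 1 of the 10, the first window of Scmh1, and in 1510 of the 32841 windows. Both were searched on both strands and were chosen after the sequences had been seen.

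Of the chromobox genes, Cbx2 and Cbx6 were at like levels in both groups. Cbx2 (chromosome 11, 119022962 to 119031270, plus strand, GRCm38) encodes a subunit that can compact chromatin itself through a charged region. It had 34.1, 55.5 and 49.0 CPM in K1, K2 and K3, against 42.6, 45.8 and 55.5 CPM in C1, C2 and C3. The groups overlapped, and K1 was the lowest library. The log2 fold change was -0.06 ± 0.23 (SE; edgeR adjusted p = 0.916), and the 95% interval of the fold was 0.668 to 1.39. Cbx6 (chromosome 15, 79823896 to 79834688, minus strand) encodes one of the less studied Cbx subunits. It had 63.1, 79.6 and 80.5 CPM in K1, K2 and K3, against 65.35, 64.95 and 79.6 CPM in C1, C2 and C3. Here too K1 was lowest, and C3 reached the level of K2. Its log2 fold change was 0.09 ± 0.19 (SE; edgeR adjusted p = 0.827), with an interval of 0.793 to 1.43 for the fold. The annotated gene Npcd overlaps Cbx6 on the same strand and had no count in any library.

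Cbx7 had the largest log2 fold change of the 8 in the fit over all libraries. Cbx7 (chromosome 15, 79915807 to 79971119, minus strand) encodes the main Cbx subunit of embryonic stem cells, a known repressor of the Ink4a/Arf locus. It had 11.8, 13.2 and 15.1 CPM in K1, K2 and K3, against 10.2, 6.56 and 6.29 CPM in C1, C2 and C3. Each dKO-labelled library was above each Control-labelled one, by the least between K1 and C1. The means were 13.4 ± 1.62 and 7.67 ± 2.16 CPM. The log2 fold change of 0.80 ± 0.30 (SE) had an unadjusted p of 0.0271 and did not pass (edgeR adjusted p = 0.143). The interval of the fold, 1.08 to 2.81, does not hold 1, which was so for 1 of the 8 genes, and Cbx7 ranked at 2826 by p among 14890 tested genes. With an offset for GC content and length its log2 fold change was 0.24, or 0.39 relative to the median of all genes (edgeR adjusted p = 0.625), smaller in size as fitted than those of the other genes except Phc1. The 3′ end of Cbx7 overlaps the end of Apobec3, on the opposite strand, by 0.1 kb. Whether counting used strand is not known here, and reads from that overlap cannot be told apart. Apobec3 had 3.68 ± 2.01 CPM in dKO-labelled and 3.45 ± 1.29 CPM in Control-labelled libraries.

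Cbx8, which encodes a Cbx subunit also linked to repression of Ink4a/Arf, had the lowest level and the largest SE of the 8 genes. Cbx8 (chromosome 11, 119036305 to 119040969, minus strand) had 57, 58 and 86 counts in K1, K2 and K3, against 47, 67 and 91 counts in C1, C2 and C3. That is 1.97, 2.99 and 2.79 CPM in the dKO-labelled and 1.76, 2.93 and 3.11 CPM in the Control-labelled libraries. The replicate 1 library was the lowest of each group. The log2 fold change was -0.01 ± 0.49 (SE; edgeR adjusted p = 0.993), and the interval of the fold was 0.460 to 2.14.

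Among the polyhomeotic genes, Phc1 had the largest SD relative to its mean in either group. Phc1 (chromosome 6, 122317731 to 122340561, minus strand) encodes the polyhomeotic homologue best known from early embryos and stem cells. It had 99.35, 61.5 and 73.2 CPM in K1, K2 and K3, against 103, 32.5 and 37.6 CPM in C1, C2 and C3. K1 and C1 were both high and about equal, while K2 and K3 were both above C2 and C3. Over all libraries the log2 fold change of 0.43 ± 0.42 (SE) did not pass (edgeR adjusted p = 0.589), with an interval of 0.693 to 2.64 for the fold. Without C1 it was 1.15 and passed (edgeR adjusted p = 0.0380; 7.65% of all genes called), and over the 6 fits that leave out 1 library it ran between 0.15 and 1.15 (edgeR adjusted p = 0.0380 to 0.887).

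Phc2 (chromosome 4, 128654702 to 128752881, plus strand) encodes the polyhomeotic protein whose SAM chains have been linked to visible Polycomb bodies. It had 65.8, 88.2 and 91.7 CPM in K1, K2 and K3, against 107, 82.0 and 79.6 CPM in C1, C2 and C3. K1 was the lowest library and C1 the highest, and the other 4 lay between them. The log2 fold change was -0.13 ± 0.21 (SE; edgeR adjusted p = 0.767), with an interval of 0.6605 to 1.265 for the fold. With an offset for GC content and length, Phc2 was the 1 called gene of the 8 (log2 fold change -0.91, or -0.76 relative to the median of all genes; edgeR adjusted p = 0.0258; 12.8% of all genes called). Phc3 (chromosome 3, 30899371 to 30969415, minus strand), the third homologue, had 156, 139.5 and 146 CPM in K1, K2 and K3, against 254.5, 166 and 162 CPM in C1, C2 and C3. Every dKO-labelled library was below every Control-labelled one, but K1 was within 10 CPM of C2 and C3, and C1 was far above both. The log2 fold change of -0.40 ± 0.21 (SE) did not pass (edgeR adjusted p = 0.285).

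Scmh1 (chromosome 4, 120405281 to 120530186, plus strand) encodes a protein with MBT repeats and a SAM domain that binds the Phc proteins. It had 97.4, 53.8 and 62.0 CPM in K1, K2 and K3, against 62.8, 33.6 and 39.0 CPM in C1, C2 and C3. The replicate 1 library was again the highest of each group, and C1 fell between K3 and K1, so the groups overlapped. The log2 fold change of 0.65 ± 0.31 (SE) did not pass (edgeR adjusted p = 0.2355), with an interval of 0.970 to 2.55 for the fold. Over the 8 genes, the interval of the fold lay within a factor of 2 either way for 4, Cbx2, Cbx6, Phc2 and Phc3. For the other 4, Cbx7, Cbx8, Phc1 and Scmh1, a difference of 2-fold was within the interval.

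Leaving out the replicate 1 libraries moved 3 of the genes past the threshold. With replicates 2 and 3 alone, Cbx7, Phc1 and Scmh1 were higher in the dKO-labelled libraries, against 18.0% of all tested genes called in that setting and 10.9% called higher. The log2 fold changes were 1.14 ± 0.27 for Cbx7, 0.94 ± 0.16 for Phc1 and 0.67 ± 0.16 for Scmh1 (SE, n = 2 libraries per group; edgeR adjusted p = 0.0241, 0.00736 and 0.0260). Within replicate 1, with 1 library each and no test, K1 over C1 gave 1.16 for Cbx7, 0.964 for Phc1 and 1.55 for Scmh1, as ratios of CPM. For the means of replicates 2 and 3, the same ratio was 2.203 for Cbx7, 1.92 for Phc1 and 1.59 for Scmh1, so Scmh1 was nearly alike in both and the other 2 were not. A test, also added with the data in view, of whether the group difference itself differed between replicate 1 and the others passed for none of the 8 (edgeR adjusted p = 0.0544 for Phc2, 0.0676 for Phc1, 0.242 for Cbx7 and 0.948 for Scmh1), while 954 of 14890 genes passed. Scmh1 was also called with a term for the replicate 1 libraries, added with the data in view (log2 fold change 0.66; edgeR adjusted p = 0.0274; 15.1% of all genes called). Without the replicate 3 libraries, whose Ring1 goes against the labels, 0 of 8 were called, against 2.94% of all genes. In that setting the log2 fold changes of Cbx7, Phc1 and Scmh1 were 0.57, 0.24 and 0.64 (edgeR adjusted p = 0.613, 0.886 and 0.532).

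**Figure D2:**
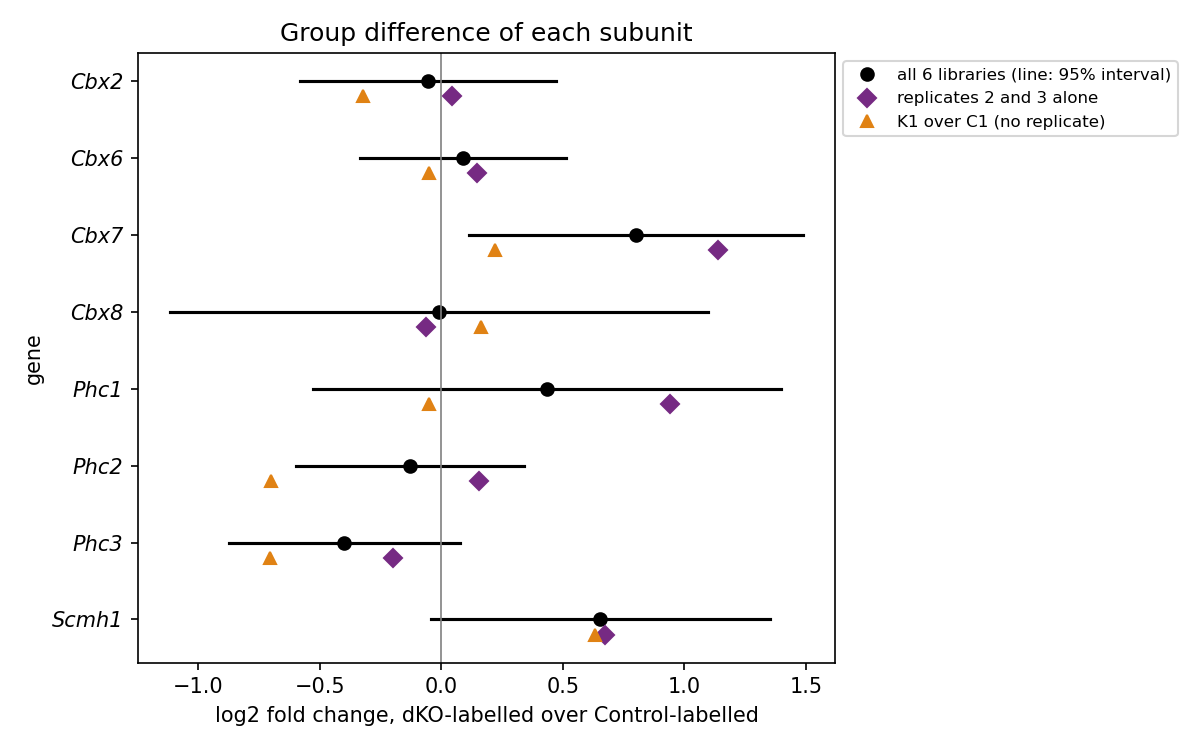
log2 fold change (horizontal axis) of each subunit gene, dKO-labelled over Control-labelled. Black points with 95% intervals are from all 6 libraries, purple diamonds from replicates 2 and 3 alone and orange triangles are K1 over C1 with no replicate; Cbx7 and Phc1 are near 0 to 0.22 within replicate 1 and 0.94 to 1.14 in the other replicates, and Scmh1 is alike in both.

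Sox9 and the summed suprabasal markers moved with the replicate 1 split. So did some markers of other lists, such as Itgb4 and Krt14, while others, such as Trp63, did not. In bulk RNA, fewer cells of a type and less RNA per cell cannot be told apart. The summed level of 6 hair follicle markers was 519, 171 and 182 CPM in K1, K2 and K3, against 372, 140 and 110 CPM in C1, C2 and C3. Most of it was Sox9, a factor of follicle stem cells and the outer root sheath, with 460 CPM in K1 and 307 CPM in C1 and 85.9 to 117 CPM in the other libraries. The inner root sheath keratin Krt25 had no count in K1, K2 or K3, against 4.31, 14.1 and 4.79 CPM in the libraries C1, C2 and C3, and 4 of the 6 markers were counted in every library. Krt25, Krt27 and Krt71 were highest in C2, and Lhx2 had 58.2, 64.5 and 64.4 CPM in K1, K2 and K3, against 53.2, 22.9 and 11.2 CPM in C1, C2 and C3. The gate on Sca1 would remove most follicle cells. The summed level of 5 suprabasal markers was 986, 3238 and 3504 CPM in K1, K2 and K3, against 1975, 4729 and 3065 CPM in C1, C2 and C3, lowest in the same pair of libraries. Phc1 and Scmh1 were likewise highest in K1 and C1, and the part of these markers in the subunit levels was not tested. Fibroblast markers summed to 435 to 728 CPM in the dKO-labelled and 245 to 791 CPM in the Control-labelled libraries. Merkel cell markers summed to 27.6 to 77.0 CPM in the dKO-labelled and 0.612 to 2.63 CPM in the Control-labelled libraries, with no overlap. Most of that sum was Krt18, at 19.8 to 67.5 CPM in the dKO-labelled and 0.481 to 1.39 CPM in the Control-labelled libraries. Of the 6 Merkel markers 1 was counted in every library, and Isl1 and Sox2 had no count in C1, C2 or C3. Atoh1, Krt8 and Krt20 overlapped between the groups and were too low to be tested. Markers of immune cells (41.5 to 159.8 and 92.8 to 197.3 CPM) and endothelium (7.93 to 34.5 and 7.21 to 44.5 CPM), dKO-labelled range first, overlapped. Melanocyte markers summed to 10.35 to 19.98 CPM in the dKO-labelled and 9.37 to 10.45 CPM in the Control-labelled libraries. Of the 3 tested melanocyte genes, Pmel overlapped, and Dct and Tyrp1 were above the Control-labelled range in all 3 dKO-labelled libraries without passing (edgeR adjusted p = 0.128 and 0.0651). Basal markers of the sorted cells, such as Krt5, Krt14 and the sorted Epcam and Ly6a, summed to 25700 to 30810 CPM in the dKO-labelled and 29500 to 43820 CPM in the Control-labelled libraries, all counted in every library. Of the 8 basal markers, Trp63 and Col17a1 were lower, with log2 fold changes of -0.79 and -0.74 (edgeR adjusted p = 0.0176 and 0.0278). Epcam had 381, 216 and 207 CPM in K1, K2 and K3, against 168, 131 and 116 CPM in the libraries C1, C2 and C3, and did not pass (edgeR adjusted p = 0.0598). The 12 proliferation markers summed to 1914 to 2496 CPM in the dKO-labelled and 2856 to 4740 CPM in the Control-labelled libraries, with no overlap. Much of that sum was Mki67, at 1016 to 1465 and 1393 to 3096 CPM, which overlapped between the groups. All 12 had negative log2 fold changes, and 1 was called, Mcm4 (-0.87; edgeR adjusted p = 0.0326), beside 10.2% of all genes. The part of basal, Merkel, melanocyte and proliferation markers in the subunit levels was not tested.

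**Figure D3:**
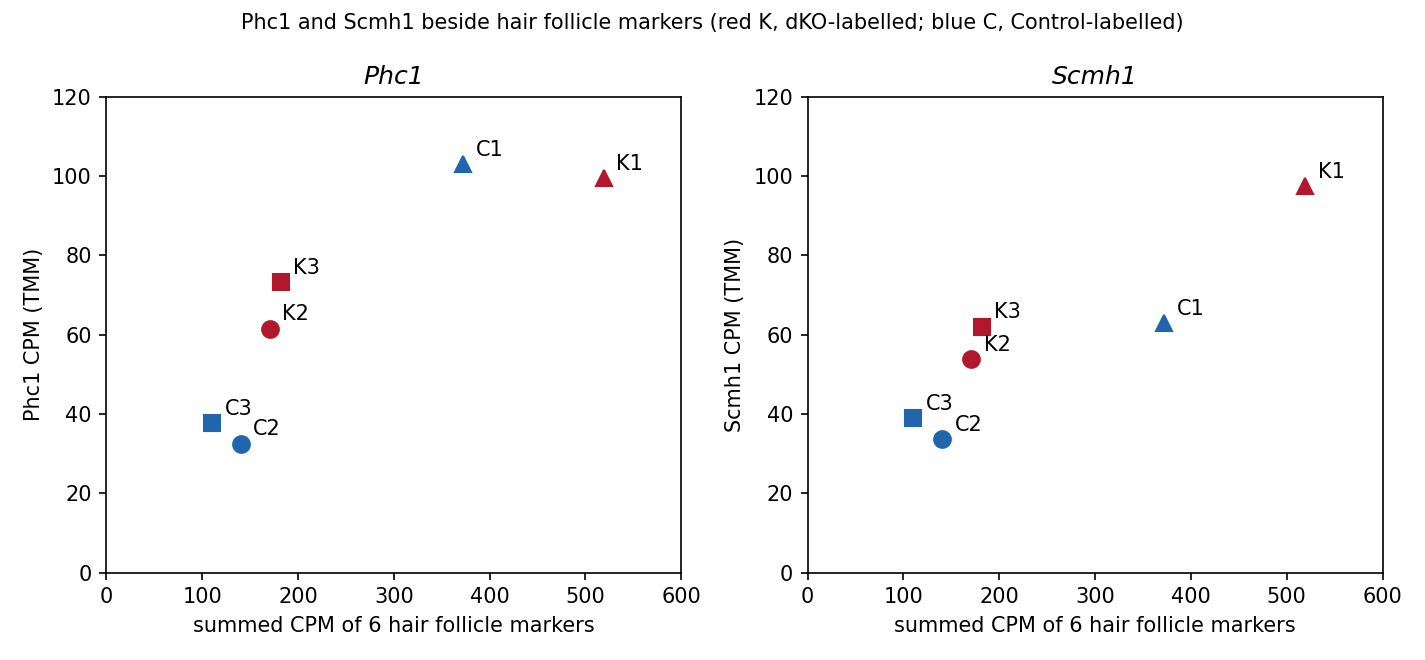
Phc1 (left) and Scmh1 (right) in CPM against the summed CPM of 6 hair follicle markers, 1 point per library, with dKO-labelled libraries in red and Control-labelled libraries in blue. The replicate 1 libraries K1 and C1 lie at 519 and 372 CPM of follicle markers, and the other 4 libraries at 110 to 182. Most of the sum is Sox9 (460 CPM in K1 and 307 CPM in C1), while Krt25, Krt27 and Krt71 were highest in C2.

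Levels were compared between genes per kilobase of annotated exon, as CPM per kb. In the dKO-labelled libraries the order was Phc1 (14.7 ± 3.66 CPM per kb), Phc2 (11.6 ± 1.99), Cbx2 (10.9 ± 2.58), Scmh1 (9.19 ± 2.998), Phc3 (8.41 ± 0.476), Cbx6 (7.02 ± 0.922), Cbx7 (2.06 ± 0.250) and Cbx8 (0.703 ± 0.146). In the Control-labelled libraries it was Phc2 (12.7 ± 2.16 CPM per kb), Cbx2 (11.3 ± 1.58), Phc3 (11.1 ± 2.99), Phc1 (10.9 ± 7.42), Cbx6 (6.60 ± 0.787), Scmh1 (5.84 ± 2.01), Cbx7 (1.18 ± 0.334) and Cbx8 (0.708 ± 0.199). Neighbours among the first 6 differed by less than the larger of their SDs in either group, except Phc3 and Cbx6 in the dKO-labelled libraries. The order of these 6 also depends on the length used. Per length of the longest transcript, Phc2 was above Phc1 in the dKO-labelled libraries, with mean shares of 39.6 and 35.0% of the 3 Phc genes. Annotated exon and longest transcript were 7731 and 3544 bases for Scmh1, against 4257 and 3807 for Cbx2. By the longest transcript Scmh1 thus stands higher relative to Cbx2. Cbx7 and Cbx8 stood below these 6 in every library, at 0.970 to 2.32 and 0.480 to 0.847 CPM per kb, with Cbx7 above Cbx8 in each. Cbx2 was therefore the most abundant of the 4 chromobox transcripts and Cbx8 the least.

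The makeup of each family differed in a few points. Of the summed CPM per kb of the 4 Cbx genes, Cbx7 held 11.2, 8.72 and 10.5% in K1, K2 and K3, against 8.60, 5.41 and 4.34% in C1, C2 and C3. The groups did not overlap, but K2 and C1 were almost equal. Cbx2 held 52.2 ± 3.36% in the dKO-labelled and 56.9 ± 1.76% in the Control-labelled libraries, and Cbx6 34.3 ± 2.203 and 33.4 ± 0.542%. Of the summed Phc genes, Phc3 held 24.1, 24.9 and 23.7% in K1, K2 and K3, against 29.6, 34.8 and 33.5% in C1, C2 and C3, also without overlap. Phc1 held 50.7, 36.2 and 39.3% in K1, K2 and K3, against 39.55, 22.5 and 25.7% in C1, C2 and C3. The replicate 1 library had the largest Phc1 share of each group, and the groups overlapped. The summed level was 20.6 ± 3.785 and 19.75 ± 2.27 CPM per kb for the 4 Cbx genes and 34.7 ± 2.49 and 34.7 ± 12.55 CPM per kb for the 3 Phc genes, in the dKO-labelled and then the Control-labelled libraries. These shares are descriptions with no test and cover the listed genes alone.

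**Figure D4:**
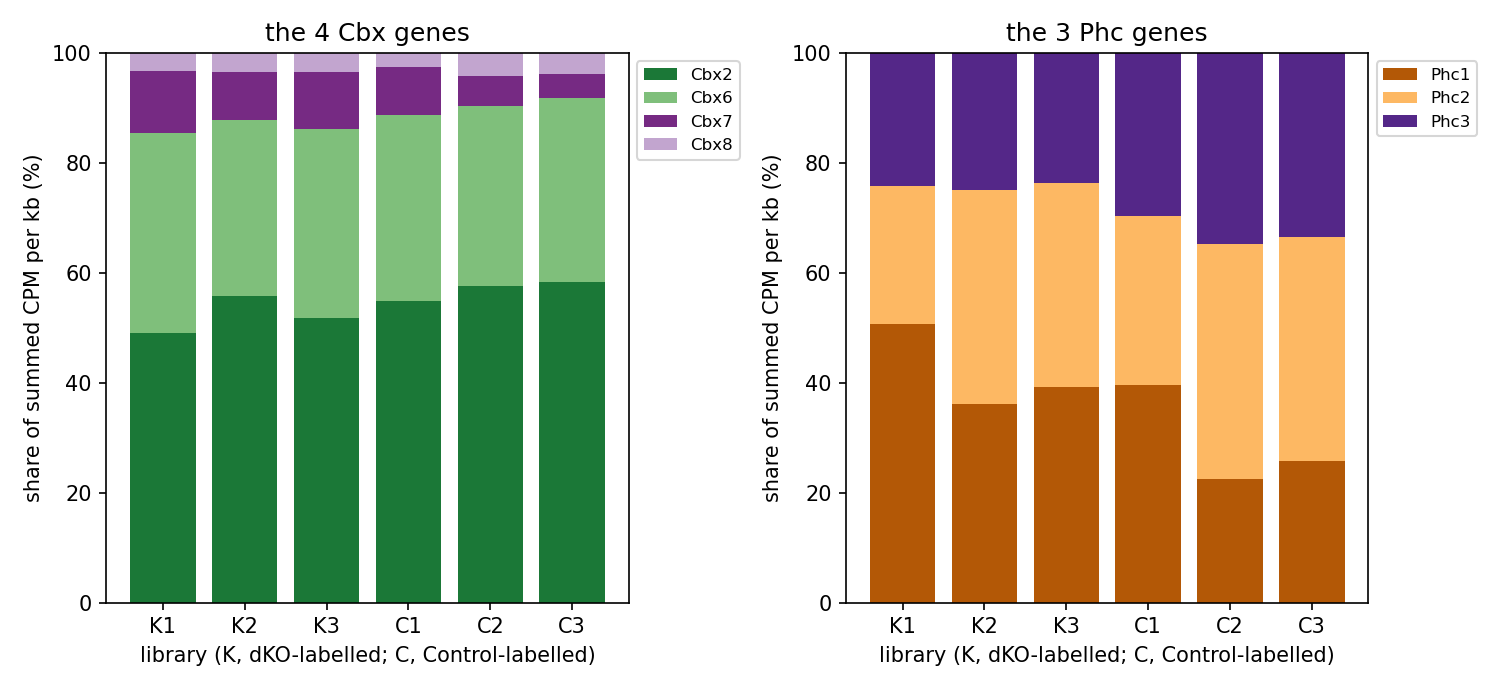
Share of each gene in the summed CPM per kb of the 4 Cbx genes (left) and the 3 Phc genes (right), as stacked bars in percent for each library, dKO-labelled libraries first. The Cbx7 segment is 8.72 to 11.2% in the dKO-labelled and 4.34 to 8.60% in the Control-labelled libraries, and the Phc3 segment 23.7 to 24.9% and 29.6 to 34.8%.

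The 8 genes did not vary as a block across libraries. Over the 6 libraries, Pearson's r of log2 CPM was 0.921 between Phc1 and Scmh1 and 0.847 between Cbx2 and Cbx6, but -0.825 between Phc1 and Cbx8. These are descriptions over 6 libraries that share the group labels and the replicate 1 split. Cbx2 and Cbx8 lie 5 kb apart on opposite strands of chromosome 11, and their r was 0.799, with Cbx2 at 46.2 ± 10.99 CPM in the dKO-labelled and 47.95 ± 6.71 CPM in the Control-labelled libraries. Cbx6 and Cbx7 lie 81.1 kb apart on the same strand of chromosome 15, and their r was 0.223. The genes whose pattern was most like that of Cbx7, among 10450 genes with a mean of at least 5 CPM, were Myzap (r = 0.996), the homeobox gene Meis2 (r = 0.995) and Mroh1 (r = 0.994). Meis2, a Hox cofactor, had 97.0, 102 and 113 CPM in K1, K2 and K3, against 75.25, 52.4 and 50.3 CPM in the libraries C1, C2 and C3, and was higher in the dKO-labelled libraries (log2 fold change 0.81 ± 0.21, SE; edgeR adjusted p = 0.0403). Those most like Scmh1 were the copper transporter Atp7a (r = 0.996), Rundc1 (r = 0.996) and the centriole gene Poc1b (r = 0.994), none of which was called.

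Genes next to the subunit genes were also read from the fit, the nearest 2 protein-coding genes on each side. Of 20 tested neighbours outside the 8 genes, 3 were called, 1 higher and 2 lower, beside the 10.2% of all genes. Pdgfb, a growth factor gene 24.8 kb from Cbx7, had 11.1, 9.73 and 10.5 CPM in K1, K2 and K3, against 20.9, 26.0 and 23.4 CPM in C1, C2 and C3. It was lower in every dKO-labelled library and fell by 1.17 on the log2 scale (edgeR adjusted p = 0.0135), beside the Cbx7 value of 0.80, which did not pass. Prkci, a polarity kinase gene 26.3 kb from Phc3, had 178 ± 6.42 CPM in the dKO-labelled and 302 ± 25.4 CPM in the Control-labelled libraries, and fell by 0.76 (edgeR adjusted p = 0.01625). Rimklb, a peptide ligase gene 106.7 kb from Phc1, had 204 counts over the dKO-labelled and 4 over the Control-labelled libraries. The ratio of rates was 50.8 (95% exact interval 19.5 to 188 for counting error alone; edgeR adjusted p = 0.0257). The dKO-labelled Rimklb values were uneven, at 4.47, 2.47 and 0.877 CPM in K1, K2 and K3.

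Other Polycomb genes were read from 6 lists. Of their 56 tested genes, 5 were higher and 3 lower in the dKO-labelled libraries, 8 in all, beside the 10.2% of all genes, and the median log2 fold change was -0.08. Among the 8 ligase and PCGF genes (median -0.15) 1 was called. Pcgf2, which with its paralogue Bmi1 forms the PCGF partner of canonical PRC1, had 62.6, 64.1 and 58.3 CPM in K1, K2 and K3, against 140, 97.4 and 105 CPM in C1, C2 and C3 (log2 fold change -0.89 ± 0.19, SE; edgeR adjusted p = 0.0217). Bmi1 itself had 64.8, 53.0 and 47.7 CPM in K1, K2 and K3, against 55.4, 67.3 and 49.8 CPM in the libraries C1, C2 and C3, and the groups overlapped. Of 13 accessory genes of variant PRC1 (median 0.17), 2 rose. Bcor, a BCL6 corepressor that works with Pcgf1, had 199.7, 164 and 148.5 CPM in K1, K2 and K3, against 87.6, 109.7 and 94.75 CPM in C1, C2 and C3 (log2 fold change 0.81 ± 0.18, SE; edgeR adjusted p = 0.0259). Its paralogue Bcorl1 had 46.0, 37.3 and 44.3 CPM in K1, K2 and K3, against 14.55, 23.5 and 24.25 CPM in C1, C2 and C3 (log2 fold change 1.03 ± 0.25, SE; edgeR adjusted p = 0.0321).

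Of 12 PRC2 genes (median -0.27) 1 was called. Epop, an accessory subunit that links PRC2 to elongin, had 27.7, 22.9 and 17.6 CPM in K1, K2 and K3, against 2.36, 6.425 and 4.41 CPM in C1, C2 and C3 (log2 fold change 2.37 ± 0.40, SE; edgeR adjusted p = 0.00747). It lay above the Control-labelled range in all 3 dKO-labelled libraries. The other 11 did not pass, among them Ezh2, the methyltransferase whose mark Cbx proteins read (log2 fold change -0.79 ± 0.24, SE; edgeR adjusted p = 0.0721). Ezh2 was called lower by DESeq2, with the term for replicate 1 and on replicates 2 and 3 alone, as was Phf19, a PRC2 accessory gene, and neither was called by limma-voom. Of 8 chromodomain genes outside canonical PRC1, such as the heterochromatin genes Cbx1, Cbx3 and Cbx5 (median -0.33), 0 were called by edgeR. Of these, 1 had an unadjusted p under 0.05 (Cdyl, lower; edgeR adjusted p = 0.1945), and 0 were called by DESeq2 or limma-voom. On replicates 2 and 3 alone, Cdyl and Mphosph8 of this list were called lower, beside 18.0% of all genes called in that setting.

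Of the MBT and SAM relatives of Scmh1 and the Phc genes, 8 of 11 were tested (median 0.14) and 3 were called. Sfmbt2, an MBT gene related to a fly Polycomb recruiter, had 79.75, 81.8 and 59.3 CPM in K1, K2 and K3, against 4.76, 9.22 and 3.69 CPM in C1, C2 and C3 (log2 fold change 3.65 ± 0.37, SE; edgeR adjusted p = 9.49e-04). Scml2, another Scm homologue, had 3.77, 1.905 and 2.08 CPM in K1, K2 and K3, against 14.1, 9.53 and 7.18 CPM in C1, C2 and C3 (log2 fold change -1.98 ± 0.43, SE; edgeR adjusted p = 0.0226). L3mbtl3, another MBT gene, had 45.8, 46.9 and 55.3 CPM in K1, K2 and K3, against 98.8, 99.9 and 96.9 CPM in C1, C2 and C3 (log2 fold change -0.998 ± 0.169, SE; edgeR adjusted p = 0.00787). None of the 3 overlapped between the groups. Of 7 genes for removal of ubiquitin from histone H2A (median -0.02), 1 was called, Asxl3, a cofactor of the deubiquitinase Bap1, higher by 2.13 ± 0.56 on the log2 scale (SE; edgeR adjusted p = 0.0449). Calls that held without any 1 library were those of Epop, L3mbtl3 and Sfmbt2. The call of Pcgf2 ended without K2, K3 or C3, that of Scml2 without K2, K3, C1 or C2, that of Asxl3 without any 1 library except C1, that of Bcor without K2, C1, C2 or C3 and that of Bcorl1 without any 1 library. With the GC content and length offset, Epop, Bcor and Bcorl1 were no longer called, and 11 of the 56 genes were, 2 higher and 9 lower. With Xist as a covariate 3 of the 8 calls were left, those of Epop, L3mbtl3 and Sfmbt2, and without K3 and C3 there was 1 call, Sfmbt2.

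**Figure D5:**
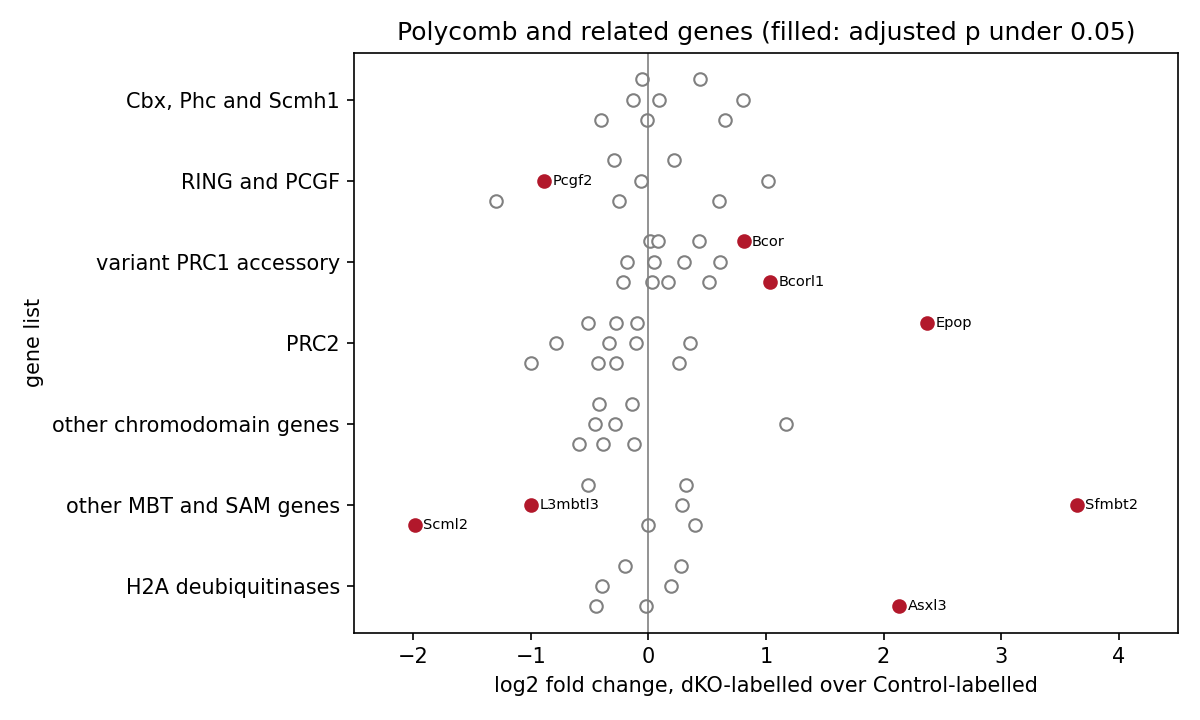
log2 fold change (horizontal axis), dKO-labelled over Control-labelled, of every tested gene in 7 gene lists, 1 point per gene, spread vertically for legibility. Filled points have an edgeR adjusted p under 0.05 and are named; the Cbx, Phc and Scmh1 row has none, with values from -0.40 to 0.80.

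The Ink4a/Arf locus, a known target of Cbx7 and Cbx8, was read as well. Cdkn2a, which encodes Ink4a and Arf, had 1.56, 1.03 and 1.69 CPM in K1, K2 and K3 and no count in C1, C2 or C3, which is at least 38.8-fold higher if the floor is taken as 3 counts in the 3 Control-labelled libraries together (edgeR adjusted p = 0.0111). Its neighbour Cdkn2b had 2.80, 5.77 and 4.06 CPM in K1, K2 and K3, against 0.263, 0.874 and 1.54 CPM in the libraries C1, C2 and C3, and did not pass (edgeR adjusted p = 0.08165). Both were counted in every dKO-labelled library, where Cbx7 had 11.8 to 15.1 CPM and Cbx8 1.97 to 2.99 CPM.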

How the data were processed

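Gene counts per symbol were made by the authors, 1 deposited file per library, and are raw counts as judged from the values. Per the submitters' processing notes, the tools were HTSeq 0.6.1, TopHat2 2.0.13, DESeq2 1.6.3 and Cufflinks 2.2.1, with mm10 as the build; annotation and strand setting: not given in the sources used here. The 8 genes and all lists were chosen with earlier results of these data known. Groups came from the sample titles. edgeR 4.0.16 in R 4.3.3 was run with TMM scaling (factors 0.927 to 1.04), filterByExpr (minimum count 10, minimum total 15), a prior count of 0.125 and, without covariates, the quasi-likelihood F test (two-sided), adjusted over 14890 genes. SEs were derived from the F statistic. Alternatives used DESeq2 1.42.0 and limma 3.58.1, other scalings and filters, covariates and fewer libraries. Exon lengths, positions and GC content are from GENCODE M21 (GRCm38), in which 23753 of 24453 symbols matched 1 gene, and promoters from RefSeq. The pipeline was tested on simulated counts. Counts of any 2 libraries differed beyond sampling noise (chi-square per degree of freedom at least 30.1). The term for replicate 1 and the test of its difference were added after seeing the data. Log CPM used an offset of 0.5. Named genes were all 8 subunit genes, Ring1 and Rnf2, Cdkn2a and Cdkn2b, called genes of the other lists or else the one with the smallest p, called neighbours (2 protein-coding genes a side), and the 3 genes most alike to each of the 2 subunit genes with the smallest p. Bmi1, Ezh2, Phf19, Mphosph8, Apobec3, Npcd and markers were named beside these after their values were seen. Figures used matplotlib 3.10.9 in Python 3.11.15.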

Additional observations from a re-analysis of the deposited data

How the results depend on the processing

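The 8 subunit genes gave 0 calls in the comparison and also with DESeq2 size factors, library size alone, no count filter, a filter of 50 counts in 3 libraries, DESeq2, limma-voom, the Xist covariate and replicates 1 and 2 alone. There was 1 call with the GC content and length offset, 1 with the term for replicate 1 and 3 with replicates 2 and 3 alone, and 0 to 1 without any 1 library. Under the offset, all genes together shifted by -0.145 in median log2 fold change, and 47.0% of the called genes were higher, against 70.6% without it. Under the offset Phc2 was lower, at -0.76 relative to that median (-0.91 as fitted; edgeR adjusted p = 0.0258), Cbx6 turned to -0.44, Cbx7 was 0.24 (edgeR adjusted p = 0.625), Cbx2 was -0.61 (edgeR adjusted p = 0.133), and the median of the 8 was -0.42. Cbx2 turned to 0.0123 on replicates 1 and 2 and 0.0438 on replicates 2 and 3, and ranged from -0.21 to 0.13 without 1 library. Cbx8 turned to 0.0724 on replicates 1 and 2 and 0.0100 with the replicate block or the term for replicate 1, and ranged from -0.23 to 0.15 without 1 library. Phc2 turned to 0.16 with replicates 2 and 3 alone and ranged from -0.22 to 0.0175 without 1 library, above 0 without K1 (0.0086) or C1. The cause of these changes was not tested. Over all genes, 1512 were called, against 2535 by DESeq2, 815 once Xist was a covariate, 439 on replicates 1 and 2, 2694 on replicates 2 and 3, and 811 to 1393 without 1 library. The 8 calls in the other Polycomb lists became 3 once Xist was a covariate, 1 on replicates 1 and 2, 13 on replicates 2 and 3, and 3 to 6 without 1 library. No label says that replicate numbers pair animals, so the comparison had no block. Deviations of same-numbered libraries correlated at 0.186, 0.261 and 0.077, against -0.225 to 0.021 for other numbers. Each library thus correlated best with its own number. With the replicate block 1451 genes, 0 of the 8 and 9 of the other Polycomb genes were called, Ezh2 added to the 8. The block lowered the SE from 0.31 to 0.17 for Scmh1 and from 0.42 to 0.25 for Phc1. It raised the SE slightly for Cbx7, Cbx8 and Phc2. The edgeR adjusted p was 0.0622 for Scmh1 and 0.186 for Phc1. With the block 3 of the 8 subunit genes had an unadjusted p under 0.05, against 1 without it. Cbx8 had the fewest counts of the 8 genes, 47 to 91 per library, and the part of depth in its wide interval was not tested.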
